A study of Mus musculus with 5 samples.

Results

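Immediate early genes are switched on within minutes of a growth factor, hormone or stress signal, before any new protein has to be made. They were followed here in uteri of mice lacking Dicer, which processes precursor microRNAs to their mature form. The set consisted of 10 genes, Fos, Fosb, Fosl2, Jun, Junb, Egr1, Ier2, Ier3, Atf3 and Dusp1, which the array lists in capitals (FOS, FOSB, FOSL2, JUN, JUNB, EGR1, IER2, IER3, ATF3 and DUSP1), out of 31490 target names. Every probe with one of these target names was taken, which gave 14 of the 45281 probes. Of these, 9 probes, 1 for each gene but Ier2, were detected on at least 2 of the 5 arrays and were tested. The other 5 were too dim to test.

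Each array held total RNA from 1 pool of uteri of mice aged 15 days on a C57BL/6J;129S5/Brd mixed hybrid background, labelled with biotin and read on an Illumina bead array. There were 3 control pools (7, 9 and 11), which the labels call wild type, and 2 Dicer cKO pools (10 and 12), in which Dicer was deleted with Cre recombinase from the progesterone receptor locus. Cre from this locus acts where the progesterone receptor is made, so cells of the uterus whose lineage has not made it keep Dicer. The sources used here do not give the number of uteri in a pool, nor whether control mice had Cre or floxed Dicer. The p-values therefore reflect only how much these pools vary. A human WG-6 v3 chip is named in the labels, but the target names of the files are mouse gene names.

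Most of the 10 genes encode transcription factors. Fos, Fosb and Fosl2 encode Fos-type subunits of the dimeric factor AP-1, and Jun and Junb encode Jun-type subunits. Egr1 encodes a zinc finger factor and Atf3 a stress-induced factor that can pair with Jun proteins. Ier2 and Ier3 are further early response genes, the latter linked to cell survival. Dusp1 encodes a phosphatase that shuts off the MAP kinases, whose activity induces the whole set. In the uterus several of them, Fos and Egr1 among them, respond quickly to oestrogen, and in any tissue they also respond to dissection and handling. The sources used here say nothing on the time of dissection of each pool.

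The sequences before the start site are shown for the pair of genes that passed the test (Fosl2 and Ier3), for the pair with the widest gap between the Dicer cKO pools (Fos and Atf3), and for Dusp1, which carried the most matches. RefSeq promoters (GRCm38.p6) were matched for 8 of the 10 genes. The 250 bases before the start lay at chr5:32136222-32136471 (plus strand) for Fosl2, chr17:35821463-35821712 (plus strand) for Ier3, chr12:85473640-85473889 (plus strand) for Fos, chr1:191183334-191183583 (minus strand) for Atf3 and chr17:26508473-26508722 (minus strand) for Dusp1. Capitals mark matches, on either strand, to the motifs searched. These were the cyclic AMP response element TGACGTCA or its short form TGACG, and the AP-1 site TGANTCA. The others were the EGR site GCGNGGGCG, the TATA box TATAAA and the serum response element CCWWWWWWGG, where W is A or T. The short form lies within the full element, so both count where the full one matches.
Fosl2: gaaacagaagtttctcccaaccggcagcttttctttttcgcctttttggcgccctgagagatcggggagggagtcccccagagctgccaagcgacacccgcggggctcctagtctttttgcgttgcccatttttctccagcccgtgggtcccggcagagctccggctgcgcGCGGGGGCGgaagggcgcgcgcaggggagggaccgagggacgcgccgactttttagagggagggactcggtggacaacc
Ier3: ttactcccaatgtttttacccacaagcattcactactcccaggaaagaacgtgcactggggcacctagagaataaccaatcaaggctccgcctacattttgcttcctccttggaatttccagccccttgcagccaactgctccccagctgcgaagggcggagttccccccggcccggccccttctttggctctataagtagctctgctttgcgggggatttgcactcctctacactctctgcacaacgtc
Fos: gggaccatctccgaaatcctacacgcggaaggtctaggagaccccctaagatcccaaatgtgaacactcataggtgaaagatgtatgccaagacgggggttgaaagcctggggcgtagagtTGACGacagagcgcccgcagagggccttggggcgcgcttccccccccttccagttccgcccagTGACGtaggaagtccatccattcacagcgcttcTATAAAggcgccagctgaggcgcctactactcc
Atf3: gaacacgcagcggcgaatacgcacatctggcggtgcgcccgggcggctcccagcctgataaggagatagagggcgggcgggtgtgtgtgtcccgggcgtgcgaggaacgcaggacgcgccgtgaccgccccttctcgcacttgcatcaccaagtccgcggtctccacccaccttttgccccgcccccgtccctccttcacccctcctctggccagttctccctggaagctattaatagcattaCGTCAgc
Dusp1: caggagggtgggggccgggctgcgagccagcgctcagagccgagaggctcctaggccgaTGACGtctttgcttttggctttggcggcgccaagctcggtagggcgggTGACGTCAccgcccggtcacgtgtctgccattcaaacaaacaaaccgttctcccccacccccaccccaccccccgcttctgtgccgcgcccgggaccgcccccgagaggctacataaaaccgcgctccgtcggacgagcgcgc

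The short cyclic AMP response element was the match most often seen in these windows. It began 129 and 66 bases before the start of Fos, with a TATA box at 33. It began 7 bases before the start of Atf3 on the opposite strand. In Dusp1 it began at 191, and the full element at 143 holds the short form once on each strand. Fosb and Junb each held 1 short match, at 60 and 106. An EGR site lay 79 bases before the start of Fosl2 and 50 before that of Fosb. The windows of Jun and Ier3 held none of the motifs searched. Of all 32851 promoter windows in the table, 17.8% held the short form, 1.55% the full cyclic AMP response element, 4.70% an EGR site, 12.4% a TATA box, 6.75% an AP-1 site and 1.47% a serum response element. A match describes the letters and is not a measured binding site.

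On each array 47.0% to 49.5% of the probes were detected, and each probe was read from a median of 44 beads. Dicer1 fell by 0.43 ± 0.09 (SE; limma adjusted p = 0.0233) by its brighter probe and differed by -0.22 ± 0.13 by the other. It is not known here whether either probe lies in the deleted part, which makes this a weak check of the labels. All 10 stromal and all 10 smooth muscle markers tested for were detected, and 9 of 10 epithelial ones, Epcam being the exception.

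Of the 9 genes tested, Fosl2 rose, Ier3 fell and 7 did not pass the test. Fosl2 was 1.34-fold higher and Ier3 1.49-fold lower in Dicer cKO uteri. The best known members, Fos, Jun and Egr1, lay within the spread of the pools. Calls rest on limma, adjusted after Benjamini and Hochberg for the 22845 probes tested, at a threshold of 0.05. By this rule 5.87% of all probes were called, 2.35% higher and 3.52% lower. The 9 genes had a median difference of -0.13, against 0.01 over all probes. That median of the 9 was 0.07 without Dicer cKO pool 10 and -0.24 without pool 12. In each of the next paragraphs, values are normalized log2 signals in control pools 7, 9 and 11 and then in Dicer cKO pools 10 and 12, differences are Dicer cKO minus control, and errors are standard errors of the fit. In whole uteri, fewer cells that make a transcript and less of it per cell cannot be told apart.

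**Figure D1:**
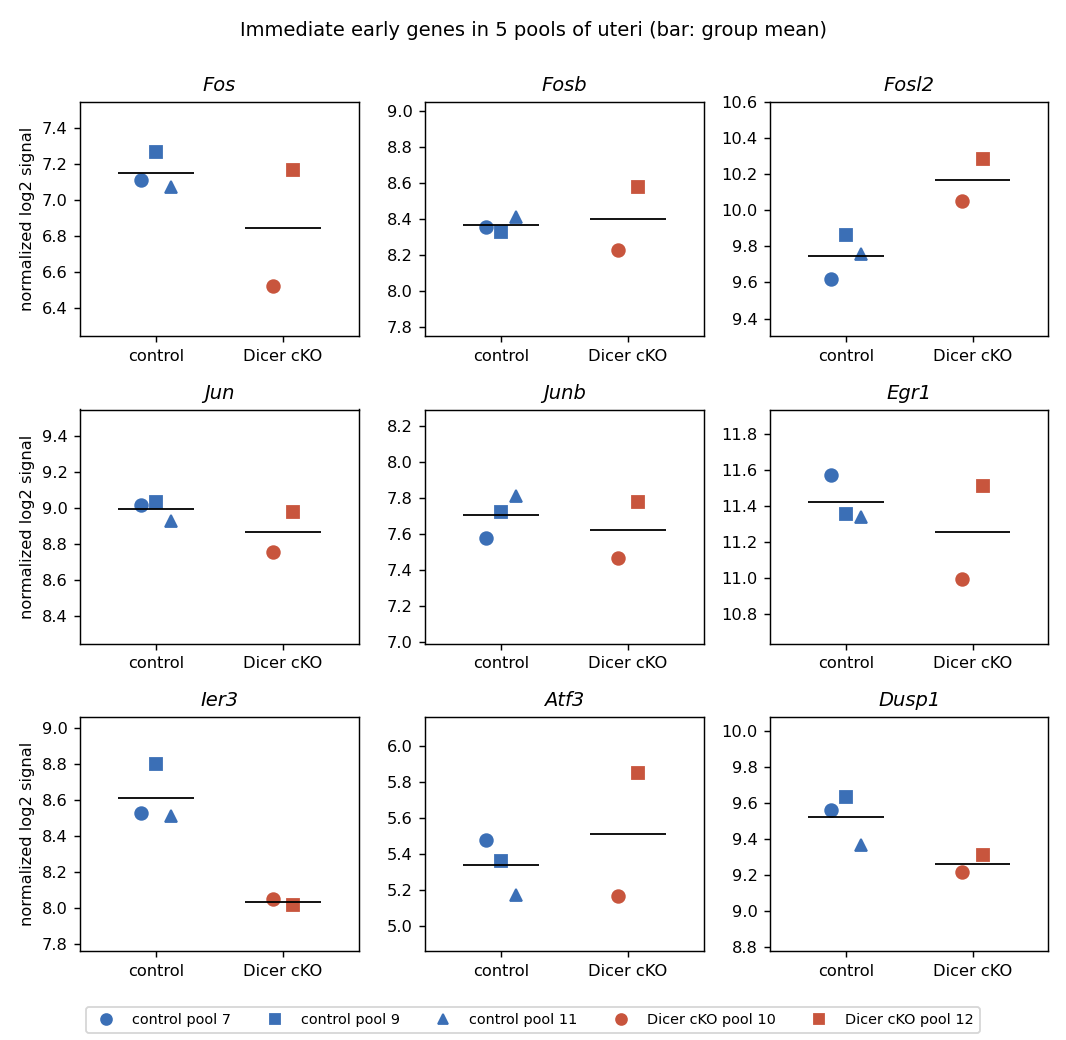
Normalized log2 signal (vertical axis, every panel spanning the same width) of the 9 tested genes in 3 control pools (blue) and 2 Dicer cKO pools (red), with bars at the group means. Both Dicer cKO pools lie above all controls for Fosl2 and below all for Ier3 and Dusp1. For Fos, Fosb, Jun, Junb, Egr1 and Atf3 the Dicer cKO pools lie further apart than the control pools.

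Among the Fos proteins, Fosl2 stood apart. Its brightest probe (7400044) read 9.62, 9.86 and 9.76 in the control pools and 10.06 and 10.29 in the Dicer cKO pools. Both Dicer cKO values lay above all controls, and the difference of 0.42 ± 0.10 passed the test (limma adjusted p = 0.0431). That call was narrow. It was lost when any 1 of the 5 pools was left out and in 8 of 13 alternatives in all, with limma adjusted p from 0.0341 to 0.186, while the difference stayed between 0.31 and 0.53. Of its other probes, 2260484 was detected on Dicer cKO pool 12 only, with 4.70, 4.85 and 4.77 against 4.98 and 5.04, and 3520520 was detected on no array.

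Fos did not show a difference that exceeded the spread. Its probe (510368) read 7.11, 7.27 and 7.07 in the control pools, and 6.52 and 7.17 in the Dicer cKO pools. Only pool 10 was low. Pool 12 lay between the control values. The difference of -0.30 ± 0.18 did not pass (limma adjusted p = 0.394), and its 95% interval ran from -0.70 to 0.09. Without Dicer cKO pool 10 the difference was 0.018, and without pool 12 it was -0.63 with a limma adjusted p of 0.0570.

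Fosb, a close relative of Fos, read 8.36, 8.33 and 8.41 against 8.23 and 8.58 (probe 6860474). Its control pools were the most alike of all 9 genes, within 0.09 of each other, and the Dicer cKO pools fell on either side of them. The difference was 0.04 ± 0.12 (95% interval -0.23 to 0.30). A dimmer Fosb probe was detected on no array.

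Neither Jun gene passed the test, and both 95% intervals held 0. Jun, the main partner of the Fos proteins (probe 7560291), read 9.02, 9.04 and 8.93 against 8.76 and 8.98. Junb, which can restrain Jun (probe 3120014), read 7.58, 7.72 and 7.81 against 7.47 and 7.78. In both, Dicer cKO pool 10 was the lowest of the 5 and pool 12 lay among the controls. The differences were -0.13 ± 0.10 for Jun (95% interval -0.35 to 0.10) and -0.08 ± 0.13 for Junb (95% interval -0.37 to 0.21). A second Junb probe was detected on no array.

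Egr1 (probe 6620079), a target of oestrogen and growth factors, read 11.57, 11.35 and 11.33 against 11.00 and 11.51. The same picture returned, with pool 10 below every control and pool 12 among them. The difference was -0.17 ± 0.14 (limma adjusted p = 0.552; 95% interval -0.47 to 0.13), and it took the other sign, 0.088, without pool 10. Atf3 (probe 1090438) was dim, at 5.48, 5.36 and 5.17 against 5.17 and 5.85. Here pool 10 matched the lowest control and pool 12 was the highest of all 5. Its difference of 0.17 ± 0.20 had a 95% interval from -0.27 to 0.61, and it was -0.17 without pool 12.

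Ier3 gave the largest difference of the set and the tightest Dicer cKO pair. Its probe (6520075) read 8.53, 8.80 and 8.51 in the control pools and 8.05 and 8.02 in the Dicer cKO pools. Both Dicer cKO pools lay below all controls and within 0.03 of each other. The difference was -0.58 ± 0.12 (limma adjusted p = 0.0157). It was lost with control pool 9 left out (limma adjusted p = 0.0650), with Dicer cKO pool 10 left out (0.111) or with pool 12 left out (0.0663), and kept in the other 10 alternatives, with a difference between -0.63 and -0.49 in all 13. Ier2, the other early response gene, was detected on no array, with detection p from 0.169 to 0.666, so these arrays give no comparison for it. Its probe read 4.55, 4.55 and 4.59 in the control pools against 4.72 and 4.37 in the Dicer cKO pools, and all 5 untested probes of the set lay between 4.28 and 5.04.

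Dusp1, the MAP kinase phosphatase (probe 4200100), read 9.56, 9.64 and 9.37 against 9.22 and 9.31. Both Dicer cKO pools were below all controls, the nearest control being pool 11. The difference of -0.26 ± 0.10, a 1.20-fold decrease, had an unadjusted limma p of 0.0290, below 0.05 as for 19.6% of all probes, and did not pass after adjustment (limma adjusted p = 0.190). It kept its direction in all 13 alternatives, between -0.34 and -0.20, and passed in none of them.

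**Figure D2:**
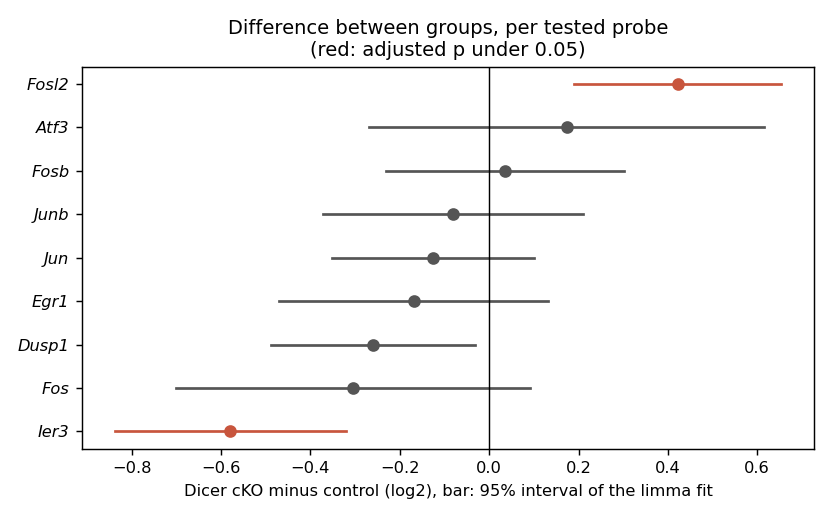
Difference between Dicer cKO and control pools on the log2 scale for the 9 tested genes, with the 95% interval of the limma fit (3 control and 2 Dicer cKO pools). The intervals of Fosl2, Ier3 and Dusp1 do not reach 0, and only Fosl2 (0.42) and Ier3 (-0.58), in red, passed after adjustment.

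In 3 of the 9 genes the groups did not overlap, Fosl2 with Dicer cKO above and Ier3 and Dusp1 with Dicer cKO below. Over all tested probes 36.7% did not overlap, so the share in the set was near that background. By the sign of the difference alone, 6 of the 9 were lower in Dicer cKO uteri, against 47.1% of all tested probes. That count was 3 of 9 without Dicer cKO pool 10 and 8 of 9 without pool 12.

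The Dicer cKO pools differed from each other in most of the set. In 8 of the 9 genes pool 12 was higher than pool 10, Ier3 being the exception, while over all tested probes 49.5% were higher in pool 12. The gap was 0.68 for Atf3, 0.64 for Fos and 0.51 for Egr1. It was 0.35 for Fosb, 0.31 for Junb, 0.23 for Fosl2, 0.22 for Jun, 0.09 for Dusp1 and -0.03 for Ier3. Gaps above 0.5, seen in 3 of the 9, occurred in 2.67% of all tested probes. Regardless of sign, the median gap was 0.31 in the set and 0.15 over all probes. The signed median over all probes, which quantile normalization holds near 0, was -0.00222. This compares 2 arrays, so it has no replicate check and carries no p.

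**Figure D3:**
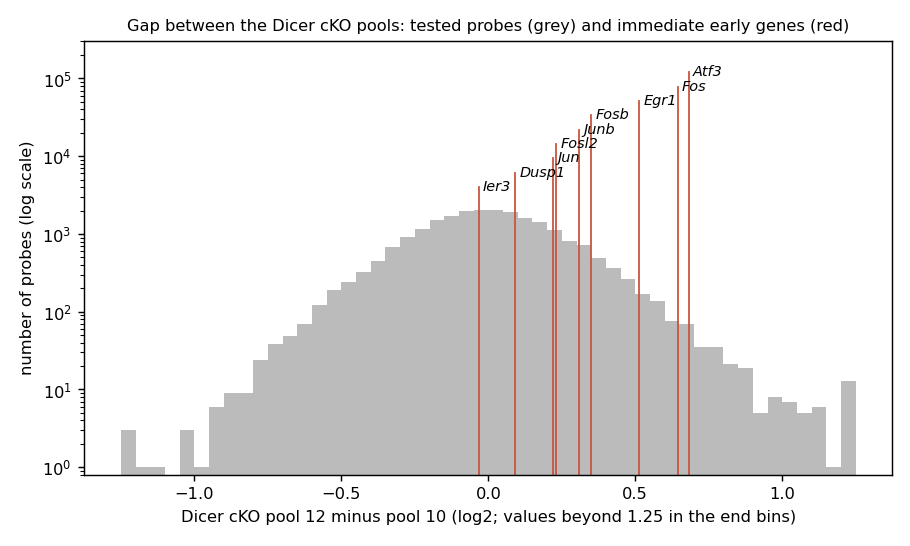
Number of tested probes (grey, log scale) by the log2 gap between Dicer cKO pools 12 and 10, with a red line for each immediate early gene (line heights only separate the names). Ier3 lies at -0.03, just below 0, and the other 8 genes lie above 0, out to 0.68 for Atf3.

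With an offset of 50 in the background correction 1 of the 9 gaps, and with no background correction 2, exceeded 0.5. With median scaling of the arrays all 9 gaps were above 0, where the median gap of all probes was 0.07. The gap of Egr1 was 0.51 with no background correction, 0.50 with an offset of 50 and 0.58 with median scaling. The other alternatives that hold both pools keep the same normalized values or drop only a control pool. They could therefore hardly move any gap and are no check of it.

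Marker genes of some other cell types were also higher in Dicer cKO pool 12 than in pool 10. This held for 9 of 10 stromal, 8 of 8 myeloid, 5 of 5 adipocyte and 8 of 9 endothelial markers that were tested, with median gaps of 0.29, 0.30, 0.56 and 0.17. It held for 4 of 9 epithelial, 7 of 10 smooth muscle, 4 of 6 lymphocyte, 4 of 5 red blood cell and 2 of 5 ovary and oviduct markers. Their median gaps were -0.03, 0.03, 0.23, 0.26 and 0, in that order. Summed on the linear scale, adipocyte markers stood at 765 in pool 10 and 1620 in pool 12, against 2063 to 3782 in the control pools. Stromal markers summed to 37129 and 42129 against 44547 to 46398, myeloid markers to 2735 and 3405 against 2722 to 3081, and epithelial markers to 8492 and 8257 against 10001 to 13079. Of the defining markers, Ptprc and Itgam among the myeloid and Plin1, Fabp4 and Retn among the adipocyte genes were detected on too few arrays to test. Between Dicer cKO and control pools, 5 of 9 epithelial markers were called lower (Foxa2, one of them, was detected on control arrays only) and 2 higher, 4 of 8 myeloid ones higher and 1 lower, 3 of 5 adipocyte and 2 of 10 stromal ones lower, 1 of 5 ovary and oviduct ones lower, and no smooth muscle, endothelial, lymphocyte or red blood cell marker in either direction (at an unadjusted limma p under 0.05, 1 endothelial marker was lower). The part of these cell types in the calls of Fosl2 and Ier3, and in the gap between the Dicer cKO pools, was not tested.

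Among the control pools, the median range over the 3 was 0.24 in the set and 0.22 over all tested probes. Pool 11 was the lowest control in 6 of 9 genes, against 32.4% of all probes. The widest control ranges were 0.30 for Atf3, 0.29 for Ier3 and 0.27 for Dusp1. For Ier3, Dusp1 and Fosl2 the control range was wider than the gap between the Dicer cKO pools.

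Expressed as the residual SD within groups, the median was 0.15 log2 units in the set and 0.13 over all probes. For 8 of the 9 genes, all but Jun, the residual SD was above the value that limma's intensity trend gives at that signal, against 43.9% of all probes. Egr1 stood out, with 0.24 against a trend value of 0.09, 2.58 times as much. The ratio was 1.84 for Fos and 1.80 for Atf3, and between 0.873 and 1.32 for the other 6. The residual SD pools both groups. For Egr1, Fos and Atf3 the SD was 0.13, 0.10 and 0.15 among the control pools. Between the Dicer cKO pools it was 0.36, 0.46 and 0.48, which is the gap described above. Only Ier3 and Dusp1 had the larger SD among the control pools. The error from bead to bead on 1 array was smaller, from 0.04 for Egr1 to 0.07 for Atf3, on the intensities as deposited.

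**Figure D4:**
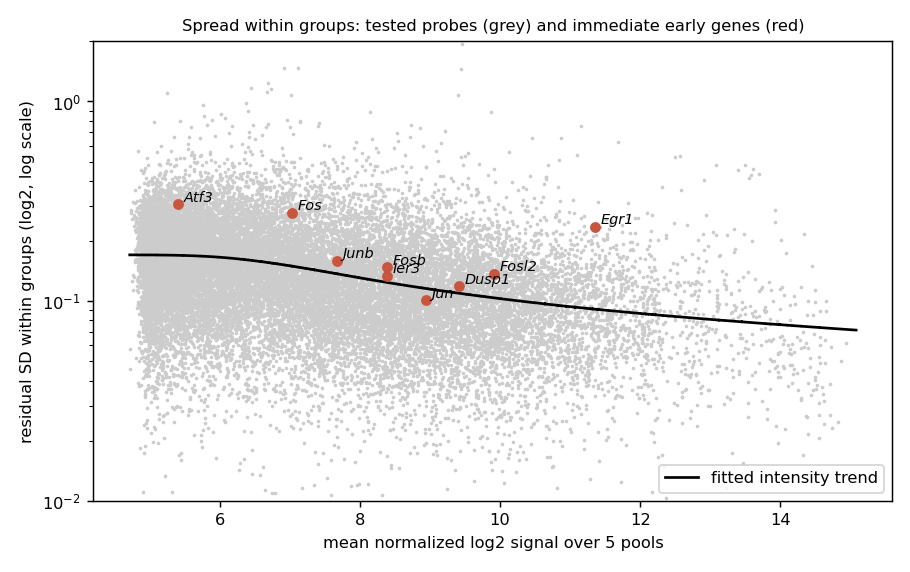
Residual SD within groups (log axis, from 0.01 to 2; probes outside are not drawn) against the mean normalized log2 signal for all tested probes (grey) and the 9 immediate early genes (red), with limma's fitted trend in black. Egr1, Fos and Atf3 lie clearly above the trend, and Jun just below it.

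The probes most like Fos and Egr1 across the 5 pools were found by the distance between log2 deviations from each probe's own mean. The 5 nearest to Fos were Tppp (0.096), Tmem106c (0.11), Poldip3 (0.11), Ctsf (0.12) and H2-Ab1 (0.14), against a median distance of 0.66 over all tested probes. The 5 nearest to Egr1 were Cd93 (0.060), Kif1b (0.081), Cpeb4 (0.082), Hbp1 (0.083) and Mgl2 (0.089), against a median of 0.55. Within the set, Egr1 lay 0.32 from Fos, Jun 0.37 and Fosl2 0.86, so Fosl2 was the least like Fos. For both genes these 5 probes lay closer than any fellow member, the nearest member to Egr1 being Jun at 0.27. They were picked as the nearest of all tested probes outside the set, so their closeness follows from that choice. It does not show that the members are unlike each other.

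The genes around the set were read by 6 lists, of which 110 genes were tested by their brightest probe. Of these, 7 were called higher, 9 lower and the rest did not pass, that is 14.5% called, against 6.57% among all 15733 genes (2.68% higher and 3.88% lower). The lists were chosen with earlier results of these data known, so the larger share cannot be read as an enrichment. The 7 include Hmox1, which was detected on Dicer cKO arrays only. The median difference was -0.02 over the lists and 0.01 over all genes. At an unadjusted limma p under 0.05, 10.3% of all genes were higher and 10.4% lower, and each list's count at that level follows with its calls. The count depended on single pools. Leaving out Dicer cKO pool 10 left 2 calls and leaving out pool 12 left 8. It was 6 with control pool 7 or 9 removed and 17 with control pool 11 removed.

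Among other AP-1 and bZIP partners, 2 of 10 fell and none rose (median -0.12; at an unadjusted limma p under 0.05, 5 were lower and 0 higher). Both can take part in dimers with Jun proteins. Batf3 read 6.72, 6.05 and 6.34 against 5.41 and 5.41, a difference of -0.96 ± 0.19 (limma adjusted p = 0.0137). Jdp2, a repressor of AP-1 (array name JUNDM2), fell by 0.55 ± 0.11 (limma adjusted p = 0.0193). Fosl1, Atf1, Maff and Mafk were detected on too few arrays to test. Batf3 was not called without either Dicer cKO pool, nor Jdp2 without control pool 7 or 9 or Dicer cKO pool 10.

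Upstream, among kinases, receptors and factors that switch the set on, 1 of 21 rose and 1 fell (median -0.03; at an unadjusted limma p under 0.05, 2 were higher and 3 lower). Rps6ka3, a kinase downstream of the MAP kinase ERK, read 7.18, 7.24 and 7.43 against 7.99 and 8.01, and rose by 0.72 ± 0.12 (limma adjusted p = 0.0056). Egfr, the receptor of epidermal growth factor, fell by 0.45 ± 0.10 (limma adjusted p = 0.0323). Srf and the other factors of this list did not pass. Rps6ka3 was not called when Dicer cKO pool 10 was left out, and Egfr was lost in 5 of 13 alternatives, those without either Dicer cKO pool or control pool 7 among them.

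Of the MAP kinase feedback inhibitors, 1 of 14 rose and none fell (median 0.01; at an unadjusted limma p under 0.05, 2 were higher and 5 lower). Among these 5, Spry4 was detected on control arrays only, so it entered the test only through the group where it is high. The gene that rose was Dusp4, a phosphatase of the same family as Dusp1, at 6.84, 6.64 and 6.91 against 7.36 and 7.83. Its difference was 0.80 ± 0.16 (limma adjusted p = 0.0144), opposite in sign to that of Dusp1. Leaving out control pool 9 or Dicer cKO pool 12 ended the call.

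Of 32 other immediate early genes, 2 rose and 2 fell (median -0.05; at an unadjusted limma p under 0.05, 6 were higher and 6 lower). Sik1, a kinase of the AMPK family, rose by 0.51 ± 0.13 (limma adjusted p = 0.0435) and Ier5l by 0.43 ± 0.10 (0.0347). Sgk1, a kinase induced by serum and glucocorticoids, fell by 0.59 ± 0.14 (limma adjusted p = 0.0395) and Nfil3, a bZIP repressor, by 0.49 ± 0.11 (0.0255). These calls were lost in 6 to 8 of 13 alternatives, without Dicer cKO pool 10, Dicer cKO pool 12, control pool 7 or control pool 9 among them. In this list 20 of 32 genes were higher in Dicer cKO pool 12 than in pool 10, with a median gap of 0.07.

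The heat shock and handling list had 2 higher (Hmox1 and Hspd1) and 3 lower of 20 genes tested (median 0.09; at an unadjusted limma p under 0.05, 4 were higher and 5 lower). Hspb1, a small heat shock protein, fell by 0.67 ± 0.14 (limma adjusted p = 0.0225), Nfkbia, the inhibitor of NF-kappa-B, by 0.64 ± 0.11 (0.0083) and the chaperone partner Bag3 by 0.35 ± 0.07 (0.0192). Hmox1, which breaks down haem, was detected on both Dicer cKO arrays and on no control array, so it entered the test only through the group where it is high, and its call is no support for a rise. It read 4.49, 4.44 and 4.84 against 5.30 and 5.36, a difference of 0.74 ± 0.16 (limma adjusted p = 0.0225) that rests on undetected control values. Measured against the higher of the lowest detected signal and its own, it was at least 1.29-fold higher, a bound that was not tested. Between the Dicer cKO pools, 14 of the 20 were higher in pool 12, with a median gap of 0.08. Nfkbia was not called without Dicer cKO pool 10, Hspb1 without that pool, without control pool 7 or with no intensity trend, and Bag3 in those same cases, without control pool 9 or with median scaling. Hmox1 was not called without control pool 7 or 9, and it was not tested without either Dicer cKO pool or with detection required on all arrays. Hspd1, a chaperone of mitochondria named here after its values were seen, was lost in 7 of 13 alternatives.

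In the integrated stress response, a pathway that can induce Atf3, 1 of 13 genes rose and 1 fell (median 0.04; at an unadjusted limma p under 0.05, 2 were higher and 1 lower). Psat1, an enzyme of serine synthesis, read 9.61, 9.75 and 9.84 against 10.71 and 10.61 and rose by 0.93 ± 0.09 (limma adjusted p = 0.00032), a call kept in all 13 alternatives. Slc7a11, a cystine transporter, fell by 1.20 ± 0.25 (limma adjusted p = 0.0208), which was lost without control pool 9 or either Dicer cKO pool, with no intensity trend and with a robust spread. Unlike Atf3, only 5 of the 13 were higher in Dicer cKO pool 12 than in pool 10.

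**Figure D5:**
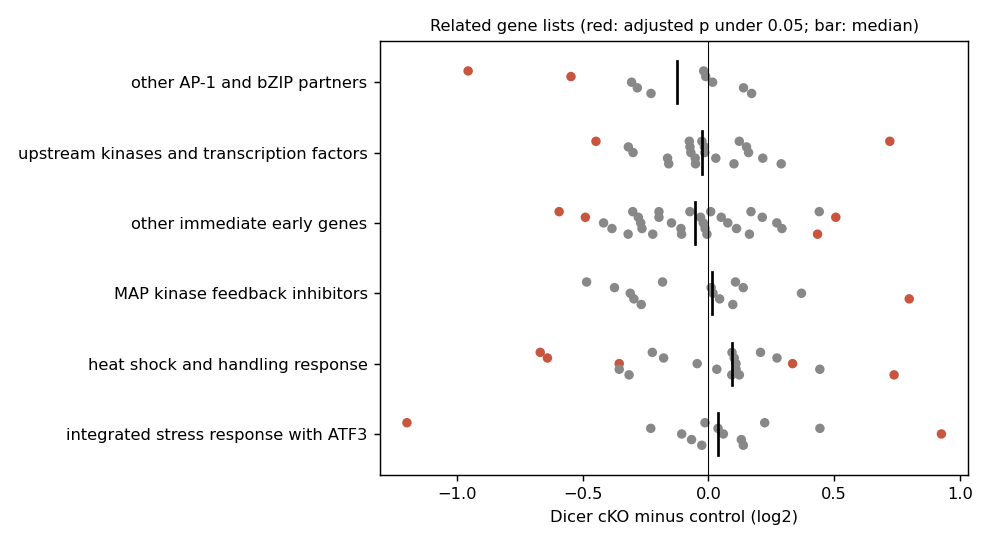
Difference between Dicer cKO and control pools (log2) for each tested gene of the 6 related lists, with called genes in red and a bar at each list's median. The medians lie between -0.12 and 0.09, and called genes lie on both sides of 0 in 4 of the 6 lists.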

How the data were processed

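Total RNA of 5 pools of uteri was read on 1 bead array each. The authors deposited, per the file headers, a mean bead intensity, the SD of the bead intensities, the number of beads and a detection score per probe. Per the submitters' processing notes the software was BeadStudio (version not stated). The intensities were not normalized between arrays (medians from 57.5 to 63.0), and 1 minus the score served as detection p. A table of the whole series held intensities, deposited on a linear scale, that had been quantile-normalized to judge by their values (median 71.1 in every column). Direction and centring follow from that scale, any background treatment is unknown, and its rows, which no probe column of the array files names, served only for a count.

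Intensities were background-corrected and quantile-normalized with neqc of limma 3.58.1 in R 4.3.3 (normexp on detection p, offset 16), which gives log2 values and compresses differences of dim probes. Probes detected (p under 0.05) on 2 or more of the 5 arrays, whichever their group, were tested with lmFit and eBayes with an intensity trend, 2-sided, with no covariate. An exact permutation test was not used, because the splits of so few pools cannot reach the threshold. The script was tested on simulated data. On the intensities as deposited, no 2 arrays of a group agreed within bead error (median squared difference over bead variance at least 2.18, against 0.455 if bead error were alone). Differences in brightness between whole arrays also enter this ratio.

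Names were updated through RefSeq (GRCm38.p6): 22864 probes carried one, 11917 a synonym of 1 gene and 10500 kept the array's name. A list gene was represented by its brightest tested probe. Named were every member probe and, per list, up to 4 called genes with the largest difference. The members and lists were chosen with earlier results of these data known. No batch is given in the sources used here.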

Additional observations from a re-analysis of the deposited data

How the results depend on the processing

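The rise of Fosl2 was no longer called with median scaling, with no detection filter or with no intensity trend (0 members higher in each), and 0 members were called higher with any pool left out. At an unadjusted limma p under 0.05, 1 or 2 members were higher and 1 to 4 lower in each of these. The count of members called lower ran from 0 to 1 with a pool left out, 0 without control pool 9 or either Dicer cKO pool. Over all probes, 536 were called higher and 804 lower. The count higher was 349 with no intensity trend. With a pool left out, 104 to 512 were called higher and 252 to 723 lower, the fewest without Dicer cKO pool 10. The deposited normalized table, with all rows, gave 507 and 788. The genes called in the related lists were 16, 9 with median scaling, 8 with no intensity trend and from 2 to 17 with a pool left out. Signs turned for values that were never called. With a pool left out, differences ran from -0.63 to 0.018 for Fos, -0.23 to 0.073 for Junb, -0.43 to 0.088 for Egr1, -0.14 to 0.21 for Fosb and -0.17 to 0.52 for Atf3, each lowest without Dicer cKO pool 12 and highest without pool 10. Fosb was at -0.022 with median scaling. The cause of these changes was not tested, beyond the fewer pools left. No paired analysis was possible because the control and Dicer cKO pools share no replicate number. Dim signal left 5 of the 14 probes, and with them Ier2, untested.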
